A study of Mus musculus with 16 samples.

Results

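Transcripts that usually mark B cells, T cells and cytotoxic lymphocytes were measured in macrophages and monocytes sorted from mouse tumours. The 8 genes, of 30819 in the deposited table, were Cd79a, Cd79b, Ighm, Cd2, Lck, Cd3e, Cd4 and Nkg7. They were found by gene symbol. Of these, 7 carried their symbol in the authors' deposited tables, and Ighm, listed there by its Ensembl ID alone, was matched through a reference table of gene names. The mice were C57BL/6J animals, either C3 wild type or C3-/-, that is, lacking complement component C3, on which the complement cascades converge. All of them carried a subcutaneous MN/MCA1 sarcoma, a transplantable mouse fibrosarcoma, collected at day 21. Macrophages were sorted as CD45+ CD11b+ Ly6G- CD11c- cells that were F4/80+ and Ly6C-. Monocytes had the same first 4 markers and were Ly6C+ and F4/80-. No lymphocyte marker was part of either gate as the labels give it. The 4 groups of 4 libraries were macrophages and monocytes of wild-type mice 1 to 4 and macrophages and monocytes of C3-/- mice 6 to 9, so both cell types came from the same animals. The loss of C3 was in the whole animal and not limited to the sorted cells.

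As background, Cd79a and Cd79b encode the paired signalling chains of the B cell receptor, and Ighm encodes the constant region of the IgM heavy chain that they hold at the surface. A complete B cell receptor needs both chains, a rearranged heavy-chain V segment and a light chain. Cd3e is a signalling chain of the T cell receptor, and Lck is the kinase that starts its signal. Cd2 is an adhesion receptor of T and NK cells, and Nkg7 is a membrane protein of cytotoxic granules. Cd4 is the coreceptor of helper T cells, but in mice it is also found on some dendritic cells and tissue macrophages.

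The windows around the annotated starts of these genes, from RefSeq on GRCm38.p6, were available for 4 of the 8 members and are printed 5′ to 3′ on the strand of the gene, from 250 bases before to 50 bases after the start. These 4 genes are shown because no window was available for the other members, and they were not chosen by their levels. In the sorted libraries Cd79a was near 0 in all of them, while Lck, Cd3e and Nkg7 were higher in monocytes. Capitals mark CAGGAAGT or its reverse complement ACTTCCTG, a short sequence with the core that ETS-family factors bind, searched on both strands. It was chosen after the windows had been read. The windows are chr7:24897247-24897546 (plus strand) for Cd79a, chr4:129573592-129573891 (minus strand) for the outer start of Lck, chr4:129558323-129558622 (minus strand) for its inner start, chr9:45009562-45009861 (minus strand) for Cd3e and chr7:43436888-43437187 (plus strand) for Nkg7.
Cd79a: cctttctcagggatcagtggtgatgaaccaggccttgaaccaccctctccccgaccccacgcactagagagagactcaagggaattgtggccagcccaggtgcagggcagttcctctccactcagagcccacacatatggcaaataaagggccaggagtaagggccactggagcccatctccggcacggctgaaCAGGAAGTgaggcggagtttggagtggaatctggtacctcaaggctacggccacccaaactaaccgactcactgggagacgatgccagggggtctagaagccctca
Lck outer start: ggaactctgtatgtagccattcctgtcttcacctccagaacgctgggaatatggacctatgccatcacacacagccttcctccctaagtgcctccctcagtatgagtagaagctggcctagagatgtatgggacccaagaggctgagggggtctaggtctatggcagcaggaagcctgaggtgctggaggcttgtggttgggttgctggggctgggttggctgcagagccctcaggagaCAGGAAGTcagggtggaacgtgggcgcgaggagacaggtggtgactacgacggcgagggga
Lck inner start: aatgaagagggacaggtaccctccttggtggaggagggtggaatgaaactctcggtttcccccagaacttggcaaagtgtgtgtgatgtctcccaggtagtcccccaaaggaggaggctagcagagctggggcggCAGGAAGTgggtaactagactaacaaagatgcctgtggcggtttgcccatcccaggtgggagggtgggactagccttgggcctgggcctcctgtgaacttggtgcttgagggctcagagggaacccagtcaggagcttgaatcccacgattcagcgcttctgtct
Cd3e: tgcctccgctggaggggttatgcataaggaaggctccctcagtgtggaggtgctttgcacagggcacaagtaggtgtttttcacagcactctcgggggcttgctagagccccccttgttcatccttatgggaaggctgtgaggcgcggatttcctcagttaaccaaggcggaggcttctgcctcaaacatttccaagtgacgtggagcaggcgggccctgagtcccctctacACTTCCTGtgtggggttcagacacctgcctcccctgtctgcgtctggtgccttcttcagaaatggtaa
Nkg7: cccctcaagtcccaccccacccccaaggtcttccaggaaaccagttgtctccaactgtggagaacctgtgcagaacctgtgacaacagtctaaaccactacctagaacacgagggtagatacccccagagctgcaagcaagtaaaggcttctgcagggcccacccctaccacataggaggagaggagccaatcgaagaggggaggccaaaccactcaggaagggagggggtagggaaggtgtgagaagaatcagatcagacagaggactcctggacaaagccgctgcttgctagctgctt
The match was in the windows of Cd79a, Cd3e and both starts of Lck, once each, and not in that of Nkg7. Over all 32851 windows of the same length, 3.33% held it. An E box, CANNTG, stood in all 5 windows and in 72.3% of all windows. The RUNX letters TGTGGT, with ACCACA on the other strand, were in the windows of the outer start of Lck and of Nkg7 and in 16.8% of all windows. The octamer ATGCAAAT or ATTTGCAT, found in 1.74% of all windows, was in none of the 5. These matches describe the letters of the windows and no binding.

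Levels are given as normalized reads, which are reads recovered from the deposited values and divided by the size factor of the library. The libraries held 18689461 to 29049373 such reads. Differences and their tests are on the deposited regularized log2 scale, which draws low values together and so understates fold changes. A gene was tested where its value, put back on the linear scale, reached 10 in at least 4 libraries of the comparison. A difference was called at an adjusted p under 0.05 (limma, Benjamini-Hochberg over all genes tested). Groups without overlap, called or not, were common on the deposited log2 values. They made up 13.1% of genes tested between the genotypes of macrophages and 11.1% in monocytes. Between cell types the share was 57.6% in wild type and 55.2% in C3-/-. The markers that separate the gates followed the labels. Ly6c2, which encodes a Ly6C antigen, had 11307 to 19065 normalized reads in monocytes and 1.64 to 19.1 in macrophages. Adgre1, which encodes F4/80, had 5448 to 8646 in monocytes and 22022 to 28943 in macrophages. Itgam, which encodes the CD11b of both gates, was lower in C3-/- macrophages (difference -0.27, adjusted p = 0.0133, limma). It was also lower in C3-/- monocytes (difference -0.46, adjusted p = 0.0195, limma). C3 reads were present in the C3-/- mice but lower, at 1076 to 1390 against 3262 to 4830 in macrophages and 4624 to 5204 against 14608 to 16132 in monocytes. Of the 16 libraries, 2 stood apart for lymphocyte genes. The monocyte library of C3-/- mouse 9 held 13591 normalized reads of the immunoglobulin V gene Ighv1-80, which was at 0 in the others, and the monocyte library of wild-type mouse 3 had the highest Lck, Nkg7 and Gzmb of all. Where leaving out either moved a difference of a member printed here by over 1.5 times or changed its call, the value without it is given.

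**Figure D1:**
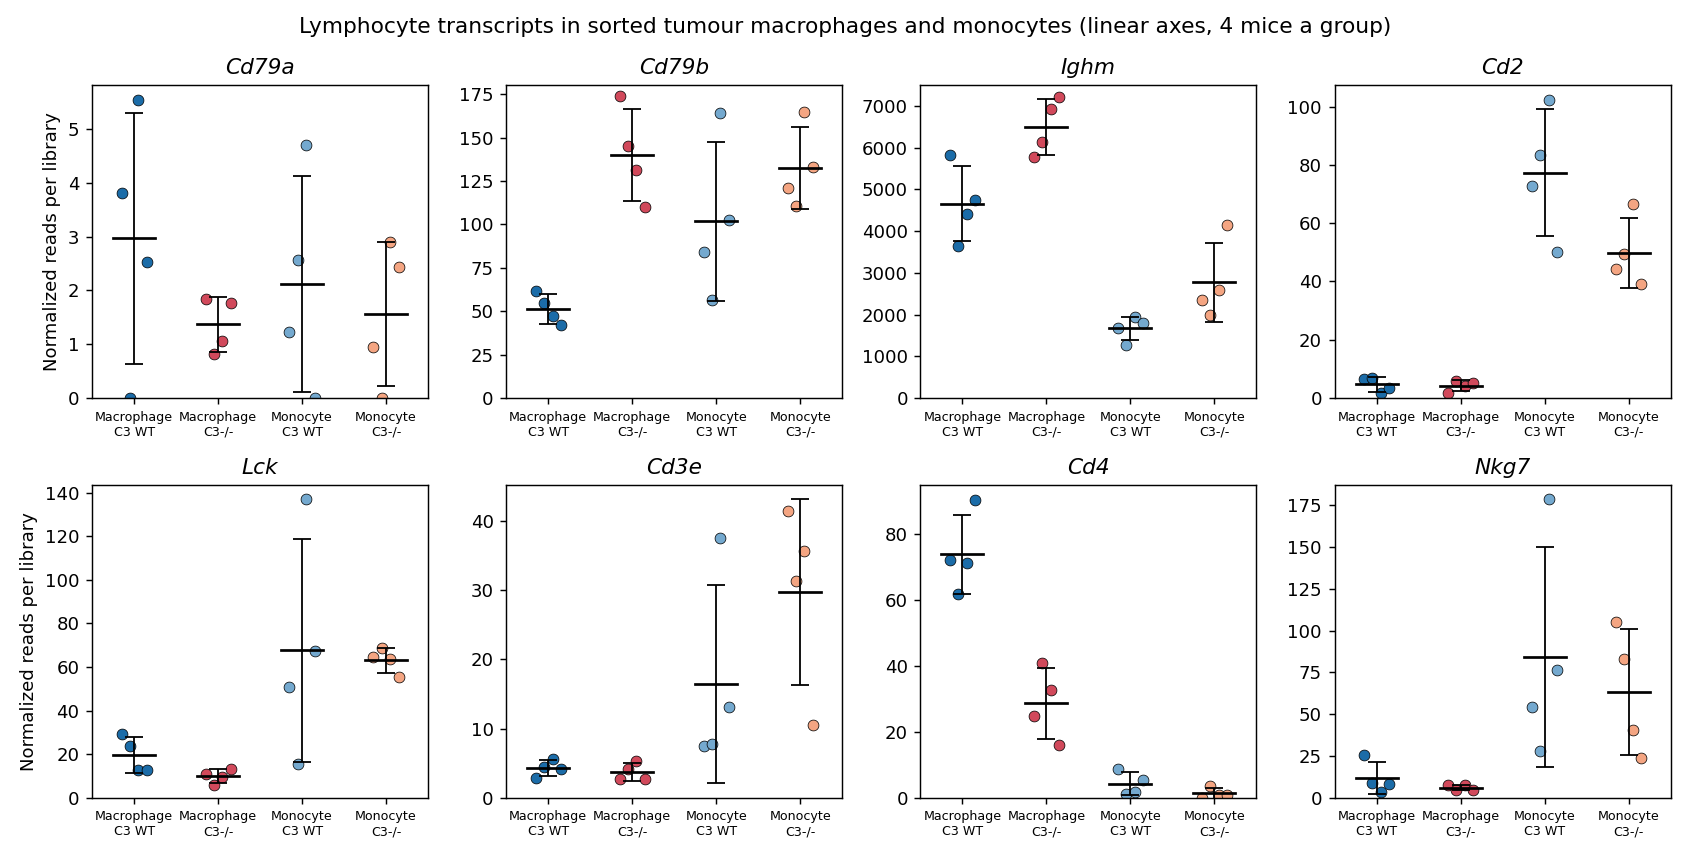
Normalized reads of each of the 8 genes (y axis, linear, a separate scale per panel) in the 4 groups; points are libraries, horizontal bars the mean and vertical bars the SD of 4 mice. Cd79b and Cd4 differ between wild-type and C3-/- macrophages without overlap, and Cd2 is between 39.0 and 102 in monocytes and at most 6.73 in macrophages.

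Per kilobase of exon, Ighm was the most abundant of the 8 in both cell types, with a median of 3076 normalized reads per kilobase in macrophages and 1043 in monocytes. In macrophages it was followed by Cd79b at 60.0, Cd4 at 12.7, Nkg7 at 8.08, Lck at 4.37, Cd2 at 2.74, Cd79a at 1.24 and Cd3e at 1.02 per kilobase. In monocytes the order after Ighm was Cd79b at 81.1, Nkg7 at 71.5, Cd2 at 33.5, Lck at 21.9, Cd3e at 5.44, Cd79a at 1.26 and Cd4 at 0.392. Cd4 was thus next after Ighm and Cd79b in macrophages and last in monocytes. Neighbours in these orders mostly had overlapping ranges over the 8 libraries: Cd79b, at 39.5 to 115 per kilobase in monocytes, overlapped with Nkg7 at 25.8 to 195. Ighm, with a lowest value of 677 per kilobase in monocytes, did not overlap with Cd79b.

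The signalling chains of the B cell receptor were not found together. Cd79a (chromosome 7, 24897381 to 24902197, plus strand, GRCm38) had 13 reads summed over the 4 wild-type macrophage libraries, 6 in C3-/- macrophages, 8 in wild-type monocytes and 7 in C3-/- monocytes. No library exceeded 5.54 normalized reads, and the gene did not reach the level needed for a test in any comparison. Its partner Cd79b (chromosome 11, 106311341 to 106314762, minus strand) was detected in every library.

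In wild-type macrophages Cd79b had 61.8, 55.0, 47.1 and 42.3 normalized reads in mice 1 to 4. In C3-/- macrophages it had 174, 145, 131 and 110 in mice 6 to 9. The groups did not overlap, as for 13.1% of all genes tested there: every C3-/- library was above every wild-type library. The means were 51.5 ± 8.61 and 140 ± 26.8 (SD, n = 4 each), 2.72-fold higher without C3, and the difference on the log2 scale was 0.94 (SE 0.12, adjusted p = 0.00074, limma). In bulk libraries such as these, a change in the number of cells of a type and a change in RNA per cell cannot be told apart. The authors' deposited table gave 1.45 (SE 0.27, adjusted p = 4.77e-06) for the same comparison.

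Monocytes of wild-type mice 1 to 4 had 84.0, 56.5, 164 and 102 normalized reads of Cd79b, and those of C3-/- mice 6 to 9 had 121, 111, 165 and 133. These groups overlapped, with means of 102 ± 45.8 and 133 ± 23.5 (SD, n = 4 each) and a difference of 0.31 (SE 0.19, adjusted p = 0.451, limma). It was 0.49 without the library of wild-type mouse 3 (adjusted p = 0.167, limma) and 0.15 without that of wild-type mouse 2. The change in macrophages exceeded that in monocytes by 0.63 (SE 0.24), which did not pass the test of the difference of knockout effects (adjusted p = 0.296, limma). Wild-type macrophages were below wild-type monocytes by 0.58 on the log2 scale (difference -0.58, SE 0.19, adjusted p = 0.02, limma), and without the macrophage library of mouse 4 this call was lost (adjusted p = 0.0562, limma). In C3-/- mice the same difference was 0.05 with a 95% interval from -0.22 to 0.33. There the means were 140 in macrophages and 133 in monocytes.

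Other B cell genes were compared with Cd79b between the genotypes of macrophages. Pax5, a B cell identity factor, had at most 0.95 normalized reads in any macrophage library and was at 0 in all 4 C3-/- libraries. Ebf1, of the same list, had 9.23 to 42.8 in wild-type macrophages and 1.06 to 20.5 in C3-/- ones. These groups overlapped, and the difference was not called (-0.59, adjusted p = 0.304, limma). Ms4a1, Bank1 and Ralgps2, of the same list, had reads in every macrophage library. In wild type they had 10.1 to 33.3, 73.9 to 175 and 213 to 283 normalized reads. In C3-/- macrophages they had 14.7 to 23.9, 126 to 185 and 185 to 228, with overlap for each. Cd79b had 8.5 to 16.7 reads for each Cd79a read in the 3 wild-type macrophage libraries with any Cd79a, and 62 to 177 in the 4 C3-/- libraries. These ratios rest on 3 to 6 Cd79a reads per wild-type library and on 1 or 2 per C3-/- library. Of the 20 genes of the B cell list 19 were measured and 9 passed the filter in macrophages. Among these, Cd79b rose and Cd22, an inhibitory receptor of B cells, fell by 0.99 (adjusted p = 0.000797, limma), from 106 to 170 normalized reads to 36.8 to 56.5, while the other 7, Ighm among them, were not called. Of the 9 genes 3 had an unadjusted p under 0.05, and 5.70% of all genes tested were called. The list's median difference was 0.02, beside 0.00 over all genes tested. In monocytes Cd22 was the 1 gene called of 8 tested. It fell there by 1.42 (adjusted p = 0.00356, limma), the list's median was 0.20 and that of all genes -0.01. Between cell types the list split. Of 8 genes tested in wild type 2 were higher and 4 lower in macrophages, beside 31.7% and 31.7% of all genes. In C3-/- mice 4 of 9 were higher and 3 lower, beside 31.0% and 29.6%. Ighm and Ralgps2 were higher in macrophages of both genotypes, and Fcrla, Ebf1 and Cd22 were lower in both.

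Ighm (chromosome 12, 113418558 to 113422730, minus strand, annotated as an immunoglobulin constant-region gene) was abundant in every library. Wild-type macrophages had 5830, 3654, 4412 and 4753 normalized reads in mice 1 to 4, and C3-/- macrophages had 5771, 6129, 6921 and 7208 in mice 6 to 9. The groups overlapped through the library of mouse 1. Mean levels came to 4662 ± 904 and 6507 ± 670 (SD, n = 4 each), and the difference of 0.37 (SE 0.10) did not pass the test (adjusted p = 0.0576, limma). Without the macrophage library of wild-type mouse 1 it was called, at 0.45 (adjusted p = 0.00854, limma).

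In monocytes Ighm was lower than in macrophages in both genotypes. Wild-type monocytes had 1672, 1277, 1942 and 1787 normalized reads in mice 1 to 4, and C3-/- monocytes had 2341, 1993, 2588 and 4158 in mice 6 to 9. The groups did not overlap, but the difference of 0.47 (SE 0.15) was not called (adjusted p = 0.132, limma), and the library of mouse 9 was the highest. Without that library the difference was 0.32 (adjusted p = 0.165, limma). The authors' deposited table called Ighm in monocytes, at 0.73 (SE 0.19, adjusted p = 0.00391). Macrophages exceeded monocytes by 1.04 in wild type (SE 0.11, adjusted p = 2.67e-05, limma) and by 0.93 in C3-/- (SE 0.14, adjusted p = 0.000429, limma).

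Ighm came with few reads of the other antibody genes counted here in 15 of the 16 libraries. The V genes counted were 19 of the heavy chain, 26 kappa and 1 lambda, and reads of any other V gene are not included. Summed over the 46 heavy- and light-chain V genes that have a symbol, macrophages had 4.49 to 15.2 normalized reads, which was 0.123% to 0.335% of the reads of Ighm in the same library. The 7 monocyte libraries other than that of C3-/- mouse 9 had 13.1 to 28.0, or 0.642% to 1.62% of Ighm. Igkc, the constant region of kappa light chains, was at most 5.07 normalized reads in macrophages. Jchain, the joining chain of secreted IgM, had 1 read in all macrophage libraries together. Ighd, the IgD constant region next to Ighm, had 8.98 to 32.3 normalized reads in macrophages and at most 6.75 in monocytes, and Ighj1, a heavy-chain joining segment, had 7.37 to 18.1 in macrophages and at most 7.41 in monocytes.

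The monocyte library of C3-/- mouse 9 differed from these. It held 13591 normalized reads of a single heavy-chain V gene, Ighv1-80, which had 0 in the other 15 libraries. It also held 2164 of Igkc, 343 of the kappa V gene Igkv4-59 and 28.4 of Jchain. The monocytes of C3-/- mouse 8 had 28.0, 0.965 and 2.89 of these 3 genes. In the monocyte library of C3-/- mouse 9 the V gene reads came to 336% of the Ighm reads. Cd79a was not raised with them, at 2.44 normalized reads, and the macrophage library of the same mouse had 0 of Igkc, of Ighv1-80 and of Jchain. How much of this library's Ighm comes with these transcripts was not tested. In C3-/- mice the macrophage excess of Ighm was 1.08 without it (adjusted p = 3.96e-07, limma), beside 0.93 with it.

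**Figure D2:**
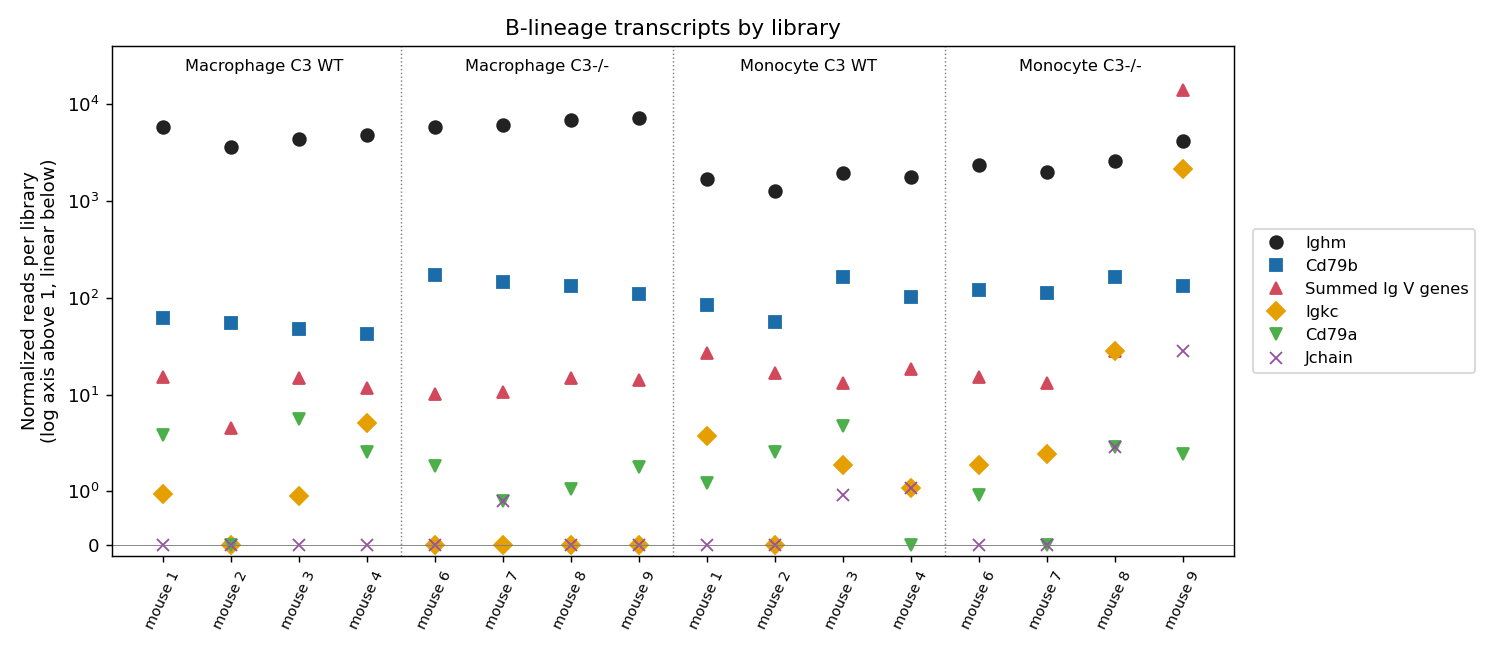
Normalized reads (y axis, logarithmic above 1 and linear below) of Ighm, Cd79b, Igkc, Cd79a, Jchain and the sum of 46 immunoglobulin V genes in each of the 16 libraries (x axis, mice grouped by cell type and genotype). Ighm is above 1000 in every library, while V genes and Igkc are highest in the monocytes of C3-/- mouse 9, at 13964 and 2164.

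Parts of antigen receptor signalling that myeloid cells share were abundant in both cell types. Syk, a kinase that acts below the B cell receptor and below myeloid Fc receptors, had 4314 to 5384 normalized reads in macrophages and 6523 to 9289 in monocytes. Blnk, the adaptor that B cell receptor signalling uses and that macrophages also express, had 4354 to 5424 in macrophages and 145 to 278 in monocytes. It was the largest difference of the 15 genes of this list that passed the filter, at 3.26 in wild type and 3.13 in C3-/- (adjusted p = 2.46e-10 and 2.92e-11, limma). Of the list, 2 genes were higher and 10 lower in wild-type macrophages than in monocytes, and 2 and 9 in C3-/-. Of all genes tested, 31.7% were higher and 31.7% lower in wild type, and 31.0% and 29.6% in C3-/-. Between genotypes 1 of the 15 was called in macrophages, Fyn, a Src-family kinase that rose by 0.25 (adjusted p = 0.0389, limma), and in monocytes limma called 0, with 1 at an unadjusted p under 0.05, and voom and the authors' deposited table called 0.

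Of the T cell genes, Cd3e (chromosome 9, 44998740 to 45009627, minus strand) had 2.85, 4.49, 5.54 and 4.23 normalized reads in wild-type macrophages and 2.76, 4.10, 5.29 and 2.66 in C3-/- macrophages. Monocytes had 7.41, 7.70, 37.6 and 13.1 in wild-type mice 1 to 4 and 41.3, 31.3, 35.7 and 10.6 in C3-/- mice 6 to 9. Every monocyte library was above every macrophage library, and among monocytes the genotypes overlapped. The difference between genotypes of monocytes was 0.55 (SE 0.32, adjusted p = 0.42, limma). Without the library of wild-type mouse 3 it was 0.84 (adjusted p = 0.17, limma). In macrophages it was below the level needed for a test. In C3-/- mice macrophages were below monocytes by 1.31 (difference -1.31, SE 0.23, adjusted p = 0.000359, limma), while in wild type Cd3e was filtered out. The gene overlaps an antisense gene and a second short annotation, and the kit does not mark strand. The annotation on its own strand had a mean of at most 0.241 normalized reads in any group.

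Lck (chromosome 4, 129548344 to 129573641, minus strand) had 29.5, 23.6, 12.9 and 12.7 normalized reads in wild-type macrophages and 11, 5.73, 9.53 and 13.3 in C3-/- macrophages. The difference of -0.45 (SE 0.18) did not pass the test (adjusted p = 0.194, limma). In monocytes it had 50.6, 15.4, 137 and 67.6 in wild-type mice and 64.8, 68.7, 63.7 and 55.2 in C3-/- mice. The wild-type libraries spread over 8.90-fold and enclosed all of the C3-/- ones, and the difference of 0.14 (SE 0.34) was not called (adjusted p = 0.888, limma). It was 0.45 without the library of wild-type mouse 3 (adjusted p = 0.478, limma) and -0.22 without that of wild-type mouse 2. Macrophages were below monocytes in C3-/- by 1.53 (difference -1.53, SE 0.15, adjusted p = 2.06e-06, limma). In wild type the difference was -0.94 (SE 0.37, adjusted p = 0.0497, limma), and it lost its call with the mouse as a replicate block (adjusted p = 0.0721, limma) and in 6 of the 8 fits that left out 1 library, the library of mouse 3 among them (-0.63, adjusted p = 0.103).

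Cd2 (chromosome 3, 101275899 to 101287939, minus strand) varied least of Cd2, Lck, Cd3e and Nkg7 among monocytes. Wild-type monocytes had 72.9, 83.4, 102 and 50.1 normalized reads and C3-/- monocytes 44.1, 49.4, 66.6 and 39.0, with overlap and a difference of -0.43 (SE 0.18, adjusted p = 0.254, limma). Macrophages had 1.84 to 6.73 in all 8 libraries. The monocyte mean was 16.6-fold above the macrophage mean in wild type and 11.6-fold in C3-/-, with log2 differences of -2.18 and -1.78 for macrophages minus monocytes (adjusted p = 1.54e-06 and 1.45e-06, limma). Over the 8 monocyte libraries the highest Cd2 was 2.62 times the lowest, beside 5.58 times for Cd3e, 8.90 for Lck and 7.57 for Nkg7. The reads of Cd2 for each Cd3e read ran from 2.73 to 10.8 in wild-type monocytes and from 1.07 to 3.69 in C3-/- monocytes.

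Cd4 (chromosome 6, 124864692 to 124888221, minus strand) went the other way. Wild-type macrophages had 72.2, 61.7, 71.1 and 90.4 normalized reads in mice 1 to 4, and C3-/- macrophages had 24.8, 41.0, 32.8 and 16 in mice 6 to 9. The groups did not overlap, and every C3-/- library was lower. The means were 73.9 ± 12.0 and 28.6 ± 10.7 (SD, n = 4 each), 2.58-fold lower without C3, and the difference was -0.97 (SE 0.18, adjusted p = 0.00898, limma). The authors' deposited table gave -1.37 (SE 0.35, adjusted p = 0.00319). Leaving out any 1 library kept the call, with adjusted p from 0.00629 to 0.032 (limma).

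Monocytes had few reads of Cd4, 15 summed over the 4 wild-type libraries and 5 over the 4 C3-/- libraries, and the gene was not tested between their genotypes. Wild-type mice 1 to 4 had 8.65, 1.28, 1.88 and 5.45 normalized reads, and C3-/- mice 6 to 9 had 0, 3.62, 0.965 and 0.812. Every macrophage library was above every monocyte library. Macrophages exceeded monocytes by 2.24 in wild type (SE 0.18, adjusted p = 8.76e-07, limma) and by 1.61 in C3-/- (SE 0.20, adjusted p = 2.37e-05, limma). The difference of knockout effects was -0.63 (SE 0.28) and not called (adjusted p = 0.39, limma).

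Cd4 and Cd3e were therefore apart in both cell types. Macrophages had 6 to 25.3 reads of Cd4 for each read of Cd3e, while monocytes had 0 to 1.17. The monocyte library of wild-type mouse 3, with the second highest Cd3e of all, had 1.88 normalized reads of Cd4 and 75.1 of Cd8a, the coreceptor of cytotoxic T cells. In macrophages Cd8a was at most 11.4 and Cd8b1 at most 4.62. Foxp3, the factor of regulatory T cells, Icos and Cd28, costimulatory receptors of T cells, had at most 1.69 in any macrophage library.

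Nkg7 (chromosome 7, 43437073 to 43438249, plus strand) followed the T cell genes. Wild-type macrophages had 25.7, 8.98, 3.69 and 8.45 normalized reads and C3-/- macrophages 7.36, 4.92, 7.41 and 4.43, with overlap and a difference of -0.31 (SE 0.23, adjusted p = 0.507, limma). It was -0.08 without the library of wild-type mouse 1 and -0.48 without that of wild-type mouse 3. Wild-type monocytes had 54.3, 28.2, 178 and 76.3 and C3-/- monocytes 105, 83.2, 40.5 and 23.6, also with overlap (difference -0.23, SE 0.42, adjusted p = 0.842, limma). Without the library of wild-type mouse 3 the monocyte difference was 0.11, and without that of C3-/- mouse 9 it was 0.03. Macrophages were below monocytes by 1.64 in wild type (difference -1.64, adjusted p = 0.00453, limma) and by 1.72 in C3-/- (difference -1.72, adjusted p = 0.000231, limma).

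**Figure D3:**
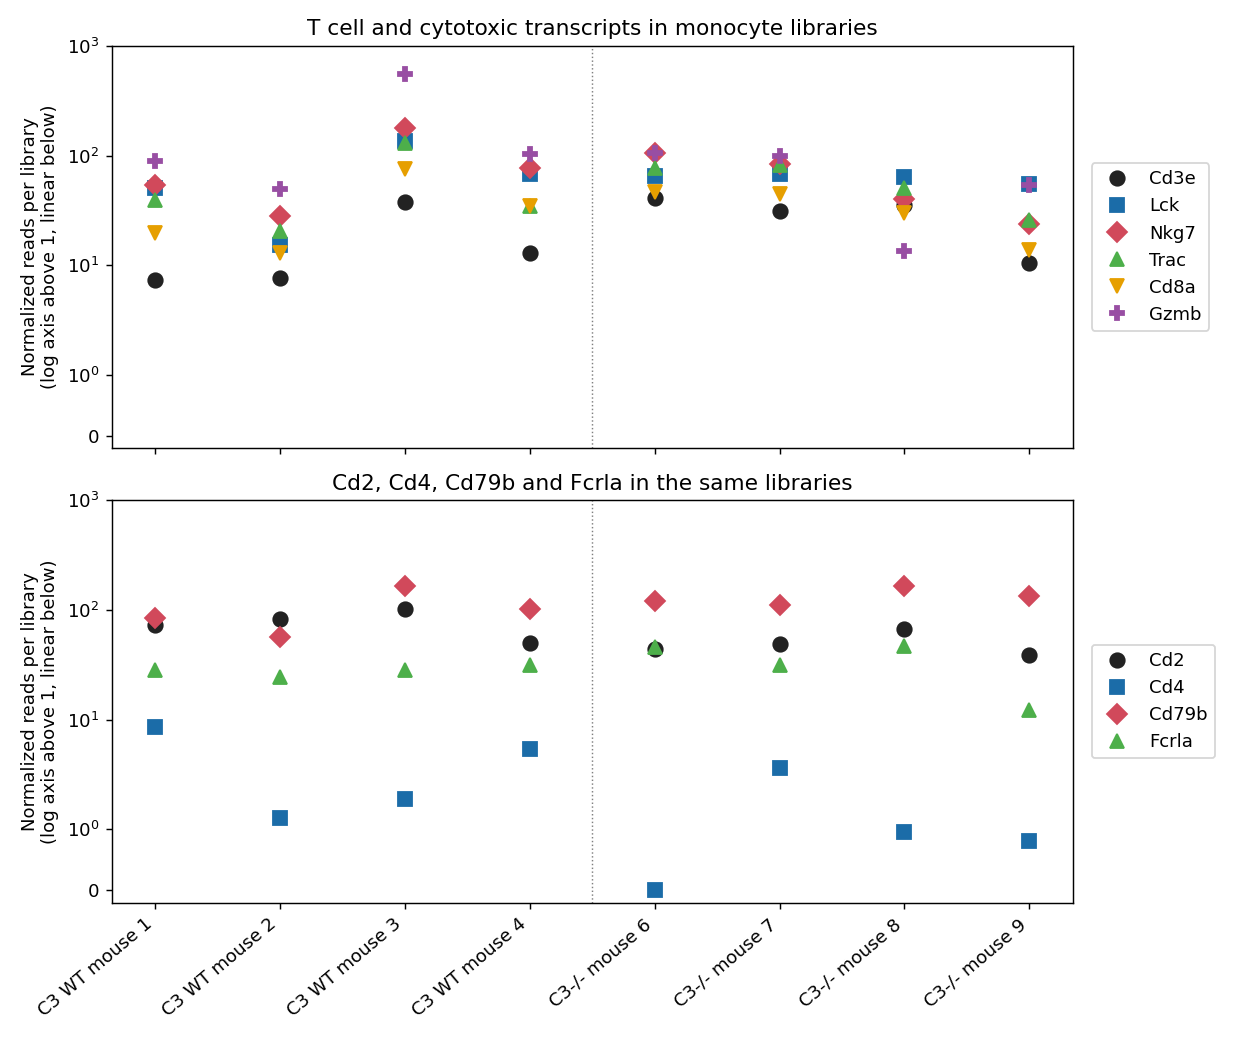
Normalized reads (y axes, logarithmic above 1 and linear below) in the 8 monocyte libraries (x axis, by genotype and mouse) of Cd3e, Lck, Nkg7, Trac, Cd8a and Gzmb (upper panel) and of Cd2, Cd4, Cd79b and Fcrla (lower panel). In the upper panel the library of wild-type mouse 3 is the highest for Lck, Nkg7, Trac, Cd8a and Gzmb, while Cd2 in the lower panel lies between 39.0 and 102 in all 8.

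The library of wild-type mouse 3 was high for many T cell and cytotoxic genes at once. It had 131 normalized reads of Trac, the T cell receptor alpha constant region, beside 20.5 to 81.9 in the other monocyte libraries. Gzmb, a granule protease of cytotoxic lymphocytes, was at 552 beside 13.5 to 106. The T cell receptor beta V genes summed to 53.5 beside 11.1 to 31.9. Ncr1, a receptor of NK cells, and Gzma stayed at most 5.64 and 3.76 in every monocyte library.

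Of the 30 genes of the T cell list, all were measured, and 17 passed the filter between the cell types of C3-/- mice and 14 in wild type. In C3-/- mice 15 were lower in macrophages and 0 higher, among them Cd2, Lck, the T cell factor Tcf7 and Cd8b1, with a list median of -1.29 beside 0.00 over all genes. In wild type 12 were lower and 0 higher, among them Cd2, Tcf7 and Cd8b1, with a median of -0.95 beside -0.01. The shares of all genes that were lower in macrophages were 29.6% in C3-/- and 31.7% in wild type. The list's summed reads were 427 to 809 in macrophages and 853 to 1583 in monocytes, and Il7r, a cytokine receptor that myeloid cells can also carry, made up 231 to 720 of them. Of the 20 NK and cytotoxic genes, 10 of 10 tested were lower in macrophages of C3-/- mice and 8 of 10 in wild type, with medians of -1.44 and -1.12. Their sums were 480 to 981 in macrophages and 1890 to 3857 in monocytes, of which Ccl5, a chemokine, held 197 to 558 and 1155 to 2406.

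Between genotypes most of these genes were not called. In macrophages 8 genes of the T cell list were tested, Il7r rose by 0.53 (adjusted p = 0.018, limma) and Tcf7 fell by 0.85 (adjusted p = 0.0355, limma), with a list median of -0.30 beside 0.00 over all genes. In monocytes 0 of 18 were called by limma, with 2 at an unadjusted p under 0.05 and 0 by voom or in the authors' deposited table, and a median of 0.04 beside -0.01. Of the 8 cytotoxic genes tested in macrophages limma called 0, with 4 at an unadjusted p under 0.05, and voom and the authors' deposited table called 0. Their list median was -0.29 beside 0.00 over all genes. Gzmb had 22.4 to 58.0 normalized reads in wild-type macrophages and 2.12 to 16.6 in C3-/- ones, without overlap (-0.96, adjusted p = 0.0547, limma). Klrk1 went the other way (0.43, adjusted p = 0.211, limma). In monocytes 1 of 11 cytotoxic genes was called: Tbx21, a transcription factor of type 1 lymphocytes, rose by 0.96 (adjusted p = 0.0275, limma), from 2.18 to 10.3 normalized reads in wild type to 16 to 33.7. It stayed at most 7.60 in macrophages, and its difference of knockout effects, macrophages minus monocytes, was -1.28 (adjusted p = 0.0393, limma). Voom did not call that difference of effects. In the same monocytes Cd209a, a lectin of dendritic cells, had 12.4, 2.57, 15.03 and 6.54 normalized reads in wild-type mice 1 to 4 and 128, 147, 621 and 790 in C3-/- mice 6 to 9. It rose by 3.66 (SE 0.50, adjusted p = 0.00418, limma), without overlap, and its difference of knockout effects was -3.13 (adjusted p = 0.0244, limma). Voom did not call this one either. Macrophages had 0 to 1.69 normalized reads of Cd209a in wild type and 0.920 to 13.8 in C3-/-, below the level needed for a test. Of the 13 conventional dendritic cell genes 11 were tested in monocytes, and 1 was higher, 1 was lower and 7 had an unadjusted p under 0.05. The lower one was Itgax, which encodes CD11c (difference -0.53, adjusted p = 0.0386, limma). Of all genes tested 3.32% were called. The list's median was -0.02 beside -0.01 over all genes. Its summed reads were 6552 to 8165 in wild-type monocytes and 5436 to 6346 in C3-/- monocytes. Flt3, a growth factor receptor of dendritic cells and their progenitors, differed by 1.11 (adjusted p = 0.109, limma), and Xcr1, a chemokine receptor of cross-presenting dendritic cells, by 0.60 without overlap (adjusted p = 0.0703, limma). The part of dendritic cells in the rise of Tbx21 was not tested.

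Regulators of the Cd4 and Cd8 lineages were measured because Cd4 stood apart from Cd3e. Zbtb7b, the factor that commits T cells to the Cd4 lineage, had 264 to 403 normalized reads in macrophages and 513 to 661 in monocytes, opposite to Cd4. Runx3, which silences Cd4 in cytotoxic T cells, had 1652 to 2148 in macrophages and 2653 to 4150 in monocytes. Of 8 regulators tested in wild type 7 were lower in macrophages and 1, Tcf12, was higher, beside 31.7% of all genes lower and 31.7% higher. Between the genotypes of macrophages Tcf7 fell and Ikzf1, a factor of lymphoid and myeloid progenitors, rose by 0.23 (adjusted p = 0.0439, limma), while 6 of 8 were not called. In monocytes limma called 0 of 9, with 1 at an unadjusted p under 0.05, and voom and the authors' deposited table called 0.

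Plasma cell and plasmacytoid dendritic cell genes were set beside the B cell genes and Cd4. Sdc1, Prdm1 and Xbp1, which plasma cells use, were lower in macrophages than in monocytes of both genotypes, and each had at least 184 normalized reads in every library. Derl3, of the same plasma cell list, was higher in macrophages of C3-/- mice (0.63, adjusted p = 0.0124, limma). Of 4 genes of that list tested, 0 were higher and 3 lower in wild-type macrophages, and 1 and 3 in C3-/-. Sdc1 had 3226 in the monocytes of C3-/- mouse 9, within the range of 2042 to 3577 over all monocytes. Siglech, Klk1 and Ly6d, markers of plasmacytoid dendritic cells, were at most 7.60, 2.82 and 2.57 in any library. Siglech had 5.07 to 7.60 normalized reads in wild-type macrophages and 0 to 3.55 in C3-/- macrophages. These groups did not overlap, as for Cd4, but Siglech was below the level needed for a test. The part of plasmacytoid dendritic cells in the difference of Cd4 was not tested. Cox6a2 was at 50.8 to 80.3 in macrophages and at most 11.3 in monocytes, and unlike Cd4 it was not called between the genotypes of macrophages (-0.18, adjusted p = 0.471, limma). Smim5, of the same list, went the other way, with macrophages below monocytes in wild type (difference -1.863) and C3-/- (difference -2.685). Of 9 genes of the list tested between cell types, 3 were higher and 3 lower in wild-type macrophages, and 2 and 4 in C3-/-. Of all genes tested, 31.7% were higher and 31.7% lower in wild type, and 31.0% and 29.6% in C3-/-. Of 8 genes of this list tested in macrophages 1 was called between genotypes, Bst2, an interferon-induced surface protein that fell by 0.27 (adjusted p = 0.00712, limma).

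Markers of other cells also moved with genotype in macrophages. Red blood cell genes summed to 430 to 1284 normalized reads in wild-type macrophages and 146 to 243 in C3-/- macrophages, and all 4 tested fell. The endothelial list summed to 365 to 570 and 921 to 1111, with Kdr alone called of 4 tested. Fibroblast and sarcoma genes summed to 1130 to 3163 and 258 to 1252 in the same groups, with 0 of 9 called by limma, 5 at an unadjusted p under 0.05, 0 by voom and 2 in the authors' deposited table. The part of these cells in the differences of Cd79b and Cd4 was not tested.

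**Figure D4:**
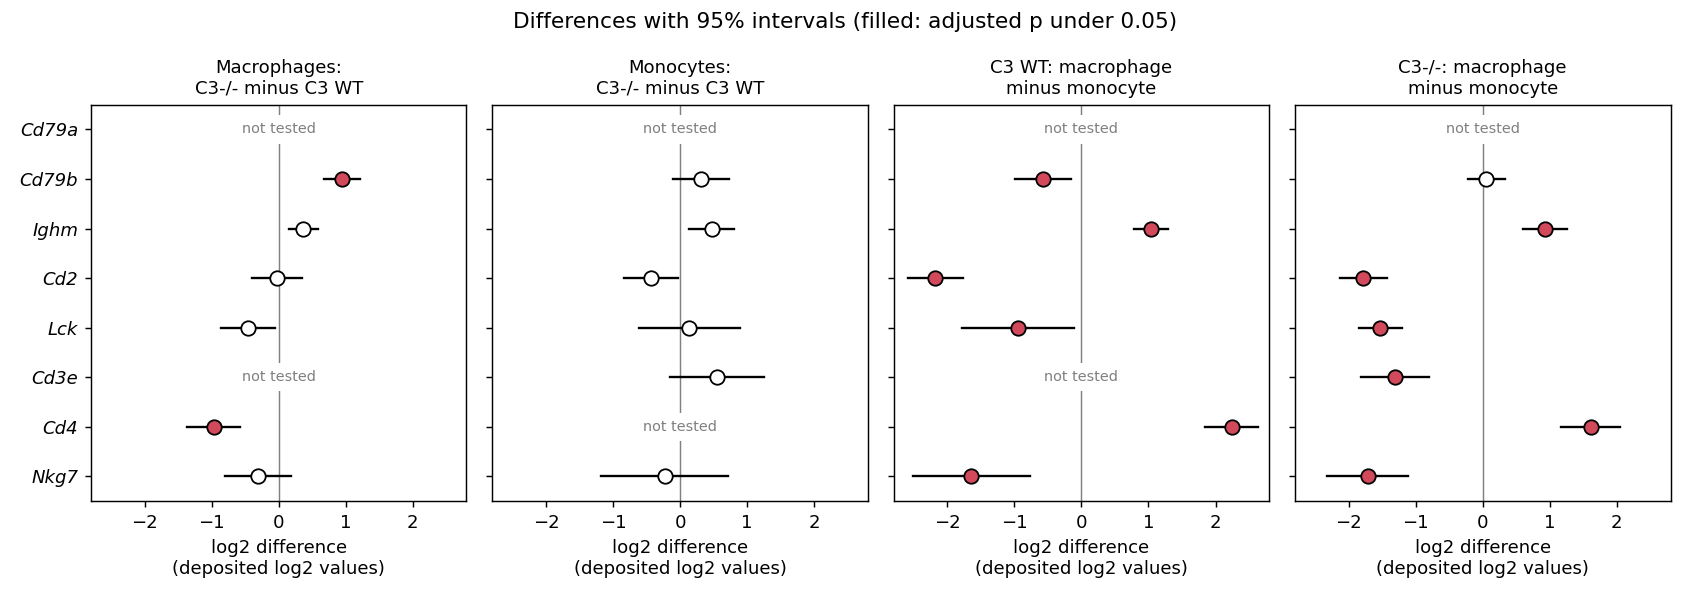
Differences on the deposited log2 scale (x axes) with 95% intervals for each gene (y axis) in the 4 comparisons; filled points passed an adjusted p of 0.05 and genes below the filter are marked as not tested. In macrophages Cd79b at 0.94 and Cd4 at -0.97 passed between genotypes, and between cell types Ighm and Cd4 lie to the right and Cd2, Lck and Nkg7 to the left in both genotypes.

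Counted over the members, 6 of the 8 were tested between the genotypes of macrophages, and Cd79b rose, Cd4 fell and the other 4 were not called. Over all 12568 genes tested there, 5.70% were called, 2.57% higher and 3.13% lower in C3-/-. In monocytes 0 of 6 members were called by limma, with 2 at an unadjusted p under 0.05, 0 by voom on the recovered reads and 1, Ighm, in the authors' deposited table. There the background was 3.32% of 12867 genes. Between cell types all 6 members tested in wild type were called, 2 higher and 4 lower in macrophages, beside 63.4% of 12769 genes, 31.7% higher and 31.7% lower. In C3-/- mice 6 of 7 were called, again 2 higher and 4 lower, beside 60.5% of 12772 genes, 31.0% higher and 29.6% lower. The shares of genes called between cell types are so high that these counts say little about the members. For the difference of knockout effects 0 of 7 members were called by limma, with 2 at an unadjusted p under 0.05 and 0 by voom, beside 0.617% of 13134 genes. With the mouse as a replicate block 251 genes were called in place of 81, and again no member.

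The genes whose deviations from the group means were most like those of each member were sought among 11446 named genes over the 16 libraries. These libraries come from 8 mice, and deviations share depth and the makeup of each sort. For Nkg7 they were Cd8a (Pearson r = 0.93, Spearman rho = 0.91), Lat, an adaptor of the T cell receptor (r = 0.91), and Gimap3 (r = 0.88), and without the 2 most extreme libraries r was 0.88, 0.85 and 0.82. For Lck they were Skap1, another T cell receptor adaptor (r = 0.90), Ablim1 (r = 0.90) and Scml4 (r = 0.89), falling to 0.67, 0.36 and 0.60 without 2 libraries. For Cd3e, Cd8b1 ranked second (r = 0.92, and 0.77 without 2 libraries) after Eci2 (r = 0.95) and before Abhd12 (r = 0.91).

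For the other members no T or B cell gene was among the 3 most alike. Cd4 was most like Nectin3 (r = 0.84), Dph6 (r = 0.79) and Ccdc122 (r = 0.78), and its r with the other 7 members ran from -0.37 to -0.01. Ighm was most like Gpatch4 (r = 0.86), Batf3 (r = 0.85) and Mdga1 (r = 0.85), and its r with Cd79b was 0.34. Cd79b was most like Eri3 (r = 0.92), Sept1 (r = 0.88) and Nit2 (r = 0.87). Its r of 0.79 with Lck fell to 0.28 when 2 libraries were left out. Cd2 was most like Gfm1 (r = 0.89), Ctso (r = 0.87) and Tmed4 (r = 0.85). Cd79a, with its few reads, was most like Nat2 (r = 0.82), Immp2l (r = 0.79) and Ccdc17 (r = 0.79).

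Genes within 5 Mb of each member were counted because the flanks of a knockout can carry other alleles. C3 lies on another chromosome than each of the 8 members. Near Cd79b 2 of 105 tested neighbours (1.90%) were called between the genotypes of macrophages and near Cd4 2 of 111 (1.80%), beside 5.70% of all genes. Over the 8 members the share called ran from 0.794% to 9.52% in macrophages and from 0% to 5.61% in monocytes.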

How the data were processed

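RNA of sorted macrophages and monocytes was measured in 16 libraries made from 5 ng of RNA each with a full-length kit that does not mark strand, per the labels' protocols. The build GRCm38 and the tools STAR 2.7.2b, bcl2fastq 2.19.0.316 and DESeq2 are named in the submitters' processing notes. The authors deposited log2 values of 30819 genes, whose transform no header names and which followed a regularized logarithm. The authors also deposited a table of wild type against knockout per cell type, holding a base mean (a signal), log2 fold changes, turned here to knockout minus wild type, and p-values. Adjusted p-values listed as missing stayed missing.

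Reads were recovered by inverting the transform: 97.4% of values at base means of 10 to 100 and 46.1% above 1000 lay within 0.05 of a whole read, and reads were used for levels and for voom as an alternative. limma 3.58.1 in R 4.3.3, with a trend and robust estimation, was fitted to the log2 values of the 8 libraries of each comparison, or all 16 for the difference of knockout effects. The design had been written for either counts or normalized values, and the files held log2 values. Genes with fewer than 4 libraries at a linear value of 10 or more were left out. The fit was tested on simulated data. Exact permutation of 4 against 4 cannot go below p = 0.0286, so adjusted p-values rest on the spread that limma shares across genes.

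Members and gene lists were chosen with earlier results of these data known. All 8 members were named in every comparison, with at most 4 called genes of smallest p from a list and the genes at or near 0. Genes named outside this rule, such as Gzmb, Trac, Ighv1-80 and Igkc, were chosen after their values were seen. Gene positions and exon lengths are from GENCODE M21 on GRCm38. Both libraries of a mouse pair by animal: their deviations correlated at 0.031 to 0.417, and those of different mice at -0.323 to 0.188. No library copied another of its group (chi-square per gene at least 9.95).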

Additional observations from a re-analysis of the deposited data

Results flagged for a closer look

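Among 18 genes in 4 groups each, 72 groups of 4 libraries were searched for a library that stood apart by Dixon's test, and 7 did. Chance flags about 1 in 20 groups, but some of these genes were chosen after their values were seen, and a group with 3 libraries at 0 is flagged whatever the fourth holds, so the count cannot be set against chance. None of the 8 members was among them. In the monocytes of C3-/- mice the library of mouse 9 was far above the other 3 for Ighv1-80 (13591 normalized reads), Igkc (2164), Igkv4-59 (343) and Jchain (28.4). Gzmb was far higher in wild-type mouse 3 than in the other monocytes of its genotype (552), and Cd22 was lowest in wild-type mouse 2 (232). At the level of a single read, Jchain stood apart in the macrophages of C3-/- mouse 7 (0.819).

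The effect of the knockout on Tbx21 differed between the cell types by limma's test of the difference itself. It was lower in macrophages than in monocytes by -1.28 on the log2 scale (adjusted p = 0.0393, limma), and the 4 C3-/- monocyte libraries were all above the 4 wild-type ones. The same test gave -3.13 for Cd209a (adjusted p = 0.0244, limma), which had 128 to 790 normalized reads in the monocytes of C3-/- mice and 2.57 to 15.03 in those of wild-type mice. Voom on the recovered reads called neither difference of effects. In macrophages both genes were below the level needed for a test between genotypes. Cd209a had 0 to 1.69 normalized reads in wild-type macrophages and 0.920 to 13.8 in C3-/- macrophages.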

How the results depend on the processing

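The calls of Cd79b and Cd4 between the genotypes of macrophages held in every alternative tried: other scalings, no filter, no trend or robust estimation, voom on recovered reads, all 16 libraries in 1 fit, the authors' deposited table and each library left out. In limma on log2(normalized reads + 1), chosen after seeing the data, both also held. Of 561 values of 32 member results under the alternatives, 529 kept direction and call, 13 lost a call, 2 gained a call and 17 changed sign, none of the 17 being called. Leaving out 1 library gave 2 to 3 members called in macrophages and 472 to 678 genes, 0 and 253 to 474 in monocytes, 4 to 6 and 7408 to 7885 between cell types in wild type, 6 and 7117 to 7503 in C3-/-, and 0 and 48 to 125 for the difference of effects. In monocytes 427 genes were called, 981 when the 16 libraries shared a fit. The authors' deposited table held 1329 calls and 1 called member, Ighm. With the replicate block 251 genes were called for the difference of effects in place of 81, and the block changed no member's call except that of Lck in wild type. Lck in wild type (adjusted p = 0.0497) also lost its call with TMM scaling, without the filter, without trend or robust estimation, with voom and on log2(normalized reads + 1), at adjusted p from 0.0517 to 0.0795; the cause was not tested. Signs changed for Lck in monocytes (-0.11 in the authors' deposited table), for Cd79b between cell types of C3-/- mice (-0.013 with median centring) and for Cd4 in the difference of effects (0.093 with voom). With 1 library left out the ranges crossed 0 for Cd2 in macrophages (-0.12 to 0.054), Lck in monocytes (-0.22 to 0.45), Nkg7 in monocytes (-0.52 to 0.11), Cd79b between cell types of C3-/- mice (-0.025 to 0.13), and in the difference of effects for Ighm (-0.20 to 0.044) and Nkg7 (-0.41 to 0.21). Cd79a, Cd3e in macrophages and Cd4 in monocytes have too few reads for a firm comparison, and a difference there was not detectable at this depth.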
